A study of Mus musculus with 6 samples.

Results

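The genes of polyamine metabolism were examined in adenomas of mice with either of a pair of *Apc* germline mutations. The group holds 10 genes, chosen by name for their role and not by a rule on measured values, although earlier results of these data were known. They are *Odc1*, *Amd1*, *Srm* and *Sms* for synthesis, *Oaz1*, *Oaz2* and *Azin1* for the control of ornithine decarboxylase, and *Sat1*, *Smox* and *Paox* for catabolism. All 10 were among the 34866 genes of the table, and all 10 passed the filter on low counts that left 16536 genes for the test. The libraries came from intestinal adenomas of C57BL/6J mice aged between 100 and 120 days, with 3 libraries of *Apc*1322T/+ mice (Apc1322T below) and 3 of *Apc*Min/+ mice (ApcMin below). Both alleles are germline, every cell of a mouse carries its mutant allele, and the mice were heterozygous. The paper attributes each adenoma of ApcMin mice to loss of heterozygosity at *Apc* in an epithelial cell. No library of normal intestine was used here, so that each comparison is between both kinds of adenoma. RNA of a sample was typically pooled from several extractions of 1 mouse, and it was sequenced as stranded single-end reads of 50 bases. The comparison asks whether adenomas with the longer Apc truncation of Apc1322T and those with the shorter one of ApcMin carried different amounts of these RNAs.

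Putrescine, spermidine and spermine are small, positively charged molecules that bind nucleic acids and are needed for growth and for translation. Ornithine decarboxylase makes putrescine from ornithine, and spermidine synthase and spermine synthase lengthen it with aminopropyl groups that come from decarboxylated S-adenosylmethionine. The way back runs through acetylation and oxidation, and antizymes carry ornithine decarboxylase to the proteasome when polyamines are plentiful. Polyamine synthesis is known to be high in the proliferating intestinal epithelium and in intestinal tumours, and *Odc1* is a known target of Myc. Much of the control of this pathway acts on translation and on protein turnover, which RNA-seq does not measure.

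None of the 10 genes differed between the genotypes at the threshold used, an adjusted p under 0.01 (quasi-likelihood test of edgeR, adjusted over all tested genes by the Benjamini-Hochberg method). This threshold was passed by 0 of the 16536 tested genes, which is 0% of them. With DESeq2's Wald test, 194 genes passed it, which is 1.12% of the 17346 with an adjusted p, and 0 of the 10 were among them. At an unadjusted p under 0.05, *Azin1* alone among the 10 was called, whereas 15.1% of all tested genes were, 7.60% with the lower value in ApcMin and 7.49% with the higher. On the log2 CPM scale (CPM, counts scaled to the library total after TMM normalisation, with a prior count of 2), the 3 libraries of one genotype lay entirely to one side of the others for 2 of the 10, *Smox* and *Oaz1*, both lower in ApcMin. Such a separation was found for 21.0% of all tested genes, of which 9.96% of all were lower and 11.0% higher in ApcMin. The share of the 10 genes was thus close to or under that of all genes by each of these counts. The median log2 fold change (ApcMin minus Apc1322T) of the 10 was -0.06, against 0.02 for all tested genes.

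The libraries held between 23132461 and 33518324 estimated counts. Each of the 10 genes had at least 722 counts in every library, so that counting error added little to the differences between libraries. Markers of epithelium (6 of 6 listed) were found in every library, with a summed level of 12000 to 14900 CPM in Apc1322T and 9530 to 11400 CPM in ApcMin. Enterocyte markers (6 of 6) summed to 15200, 24800 and 23400 CPM in Apc1322T replicates 1, 2 and 3, and to 8110, 18000 and 10300 CPM in ApcMin replicates 1, 2 and 3. Proliferation markers (6 of 6) summed to 812 to 943 CPM in Apc1322T and to 786 to 903 CPM in ApcMin. Fibroblast markers (5 of 5) were more variable, at 598 to 1510 CPM in Apc1322T and 967 to 3250 CPM in ApcMin. Squamous markers were low in all libraries, at 4.99 to 7.75 CPM in Apc1322T and 28.3 to 33.1 CPM in ApcMin, with *Krt5* too low to be tested. Markers of smooth muscle (5 of 5), endothelium (3 of 3), T cells (3 of 3), macrophages and neutrophils (5 of 5) and plasma and B cells (3 of 3) were also detected in every library. Their summed levels in Apc1322T and ApcMin were 115 to 228 and 244 to 350 CPM for smooth muscle, and 68.4 to 109 and 110 to 145 CPM for endothelium. For the immune lists they were 5.61 to 27.4 and 7.40 to 13.5 CPM (T cells), 30.9 to 54.1 and 35.5 to 130 CPM (macrophages and neutrophils), and 369 to 503 and 257 to 915 CPM (plasma and B cells). In such bulk tissue, fewer cells of a type and less RNA per cell cannot be told apart.

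The RNA of several members resembles that of copies elsewhere in the genome, and a read of 50 bases may fit both. Salmon, which made the counts, divides such reads between the genes. Positions, transcripts and sequences given here are those of GENCODE M21 on GRCm38, the build named in the submitters' processing notes. In the principal transcript of *Amd1* (chr10:40287458-40302186, minus strand), 87.6% of all 50-base windows also occur in a transcript of another gene, mostly in *Amd2* (chr10:35708675-35711892), with which it shares 3188 of 3198 aligned bases. Of the windows of *Odc1* (chr12:17544794-17551505, plus strand), 42.2% occur in transcripts of 15 other genes, most of them gene models with provisional names. *Sms* (chrX:157443855-157492287, minus strand) shares 28.7% of its windows, 1101 of 1101 aligned bases being identical in the processed pseudogene *Sms-ps*. *Paox* (chr7:140115799-140137224, plus strand) shares 28.1% of its windows, mostly with the processed pseudogene *Gm19680* on chromosome 1, which differs from it at 1 of 1358 aligned bases. *Oaz1* (chr10:80826656-80829290, plus strand) shares 53.9% of its windows with *Oaz1-ps*, a processed pseudogene on chromosome 17. The other members share few windows or none: *Oaz2* (chr9:65668001-65690300, plus strand) 12%, *Sat1* (chrX:155213132-155216449, minus strand) 7.28%, *Srm* (chr4:148591503-148594993, plus strand) 2.4%, and *Smox* (chr2:131491496-131525922, plus strand) and *Azin1* (chr15:38487427-38519266, minus strand) 0%.

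The antizyme transcripts have a sequence feature whose part in their counts was not tested. Antizymes are made only if ribosomes shift by a base at a stop codon, which they do more often when polyamines are plentiful. The stretches below surround that stop codon, shown in capitals where all its bases are present, in a transcript that contains all bases of the genome (Oaz1-205, Oaz2-203), in the principal transcript (Oaz1-207, Oaz2-206) and in the pseudogene of *Oaz1*.
Oaz1-205: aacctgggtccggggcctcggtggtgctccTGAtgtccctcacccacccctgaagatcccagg
Oaz1-207: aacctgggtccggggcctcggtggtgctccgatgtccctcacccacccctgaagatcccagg
Oaz1-ps-201: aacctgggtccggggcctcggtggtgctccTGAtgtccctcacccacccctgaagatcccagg
Oaz2-203: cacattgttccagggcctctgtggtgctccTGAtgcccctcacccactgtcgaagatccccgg
Oaz2-206: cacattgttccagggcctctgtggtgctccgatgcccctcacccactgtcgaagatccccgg
The annotation models the frameshift by leaving 1 base, the T of the stop codon, out of the principal transcript, at position 80828295 of chromosome 10 for *Oaz1* and 65686272 of chromosome 9 for *Oaz2*. With this base in place, the reading frame of the start codon reached TGA after 68 codons in *Oaz1* and 32 in *Oaz2*, and without it the frame ran on for 227 and 189 codons. The base is in 2 of the 7 annotated transcripts of *Oaz1* and absent from 3, and in 3 of the 7 of *Oaz2* and absent from 2. *Oaz1-ps* keeps it, being identical to Oaz1-205 over the 63 bases shown (0 differences), and the missing base is the only gap in its alignment to Oaz1-207, beside 1 mismatch in 684 aligned bases. The annotation release behind the deposited counts is not given in the sources used here.

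Per length of its principal transcript, *Oaz1*, the main antizyme, had the highest level of the 10, with a mean of 424 CPM per kb over the 6 libraries (range 367 to 487). *Sat1*, the acetylase that starts catabolism, followed at 152 (132 to 165) and *Odc1*, which opens synthesis, at 152 (128 to 172), with overlapping ranges. *Azin1*, an inactive relative of ornithine decarboxylase that binds antizymes, came next at 86.0 CPM per kb (61.6 to 116). The spermine oxidase gene *Smox* had 61.9 CPM per kb (52.6 to 65.6), which overlapped *Azin1*, and *Amd1*, whose product supplies the aminopropyl groups, had 41.3 (37.2 to 44.6). The pair of *Srm*, the spermidine synthase gene, at 26.9 CPM per kb (21.9 to 31.6) and *Oaz2*, the second antizyme, at 25.0 (21.1 to 29.6) overlapped each other. At the low end lay the overlapping *Sms*, the spermine synthase gene, at 10.4 CPM per kb (9.27 to 12.2) and *Paox*, which encodes the oxidase of acetylated polyamines, at 8.78 (6.61 to 14.6). Neighbours in this order whose ranges are not said to overlap were separated in all 6 libraries. These levels depend on the transcript taken for the length and, for genes with copies, on the division of reads.

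**Figure D1:**
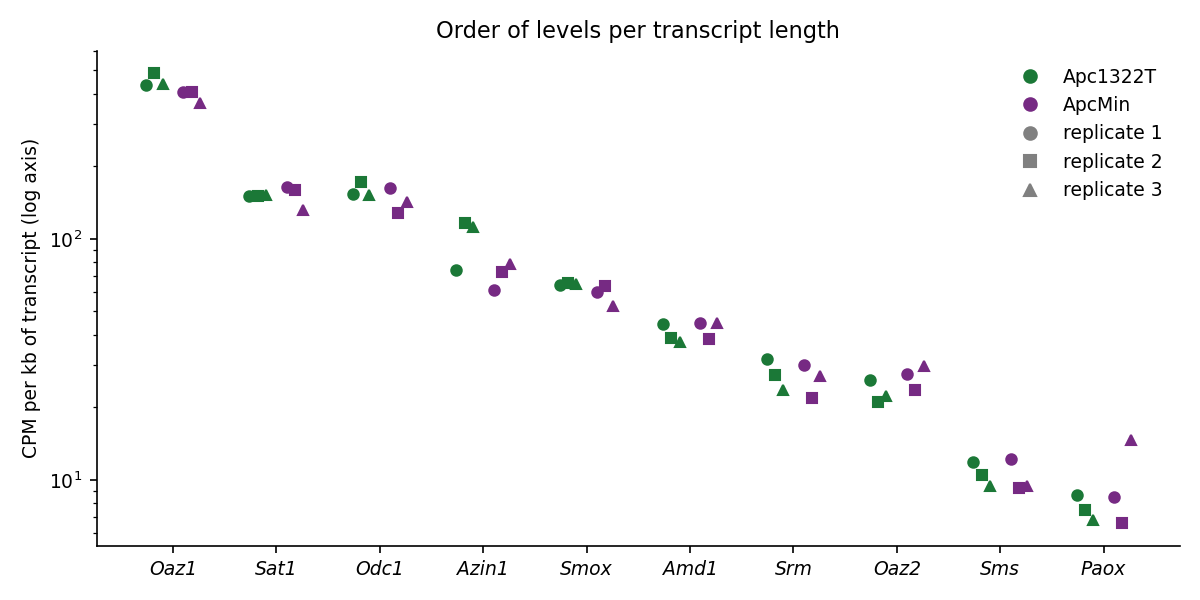
Level of each of the 10 genes per kb of its principal transcript (CPM per kb, log axis), 1 point per library, in green for Apc1322T and purple for ApcMin, with a symbol for each replicate number. The genes are in order of their mean over 6 libraries, from 424 CPM per kb for *Oaz1* to 8.78 for *Paox*, and the genotypes intermingle except for *Oaz1* and *Smox*.

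In the synthesis branch, none of the 4 genes passed the test and none separated the genotypes. *Odc1*, the rate-limiting enzyme of the pathway, had log2 CPM values of 8.40, 8.57 and 8.39 in Apc1322T replicates 1, 2 and 3 (mean 8.45 ± 0.10, SD, n = 3) and 8.50, 8.14 and 8.29 in ApcMin (8.31 ± 0.18, n = 3). The highest library was of Apc1322T and the lowest of ApcMin, but ApcMin replicate 1 exceeded both of the other Apc1322T libraries. This gave a log2 fold change of -0.14 (SE 0.12, 95% interval -0.42 to 0.15), with an edgeR adjusted p of 0.579, and the interval corresponds to 0.746 to 1.11 times the level in Apc1322T. Of the 15 genes with which *Odc1* shares windows, 14 were in the table, and their summed counts, which lie outside those of *Odc1*, were 3.47% to 5.03% of the size of the *Odc1* count in each library.

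*Amd1*, which encodes S-adenosylmethionine decarboxylase, was the steadiest of the 10 genes, with a range of 0.26 over 6 libraries. Its log2 CPM values were 7.15, 6.96 and 6.90 in Apc1322T (7.00 ± 0.13, SD, n = 3) and 7.16, 6.94 and 7.16 in ApcMin (7.09 ± 0.13, n = 3), so that the genotypes overlapped almost wholly. Its log2 fold change was 0.08 (SE 0.11, 95% interval -0.17 to 0.34, edgeR adjusted p = 0.717). *Amd2*, despite its near identity, was credited with 115, 65 and 98 counts in Apc1322T and 134, 153 and 150 in ApcMin, against 2610 to 5121 for *Amd1*. Summing both before the fit gave a log2 fold change of 0.09 (adjusted p = 0.682).

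*Srm* and *Sms* encode the enzymes that make spermidine from putrescine and spermine from spermidine. *Srm* had log2 CPM values of 5.40, 5.19 and 4.99 in Apc1322T (5.20 ± 0.21, SD, n = 3) and 5.33, 4.87 and 5.18 in ApcMin (5.13 ± 0.23, n = 3). *Sms* had 5.46, 5.30 and 5.13 in Apc1322T (5.30 ± 0.17) and 5.50, 5.11 and 5.13 in ApcMin (5.25 ± 0.22). For both genes replicate 1 of each genotype was the highest, and the spread within a genotype was wider than the difference between the means. The log2 fold changes were -0.07 for *Srm* (SE 0.16, 95% interval -0.44 to 0.30, edgeR adjusted p = 0.849) and -0.04 for *Sms* (SE 0.14, -0.39 to 0.30, adjusted p = 0.90). The sign of neither was stable when single libraries were left out. The pseudogene *Sms-ps* was listed with 91 to 133 counts in Apc1322T and 97 to 202 in ApcMin. Per length, *Sms* stood at 0.375, 0.386 and 0.397 times the level of *Srm* in Apc1322T and at 0.407, 0.424 and 0.349 times in ApcMin, so that this ratio varied little between libraries.

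**Figure D2:**
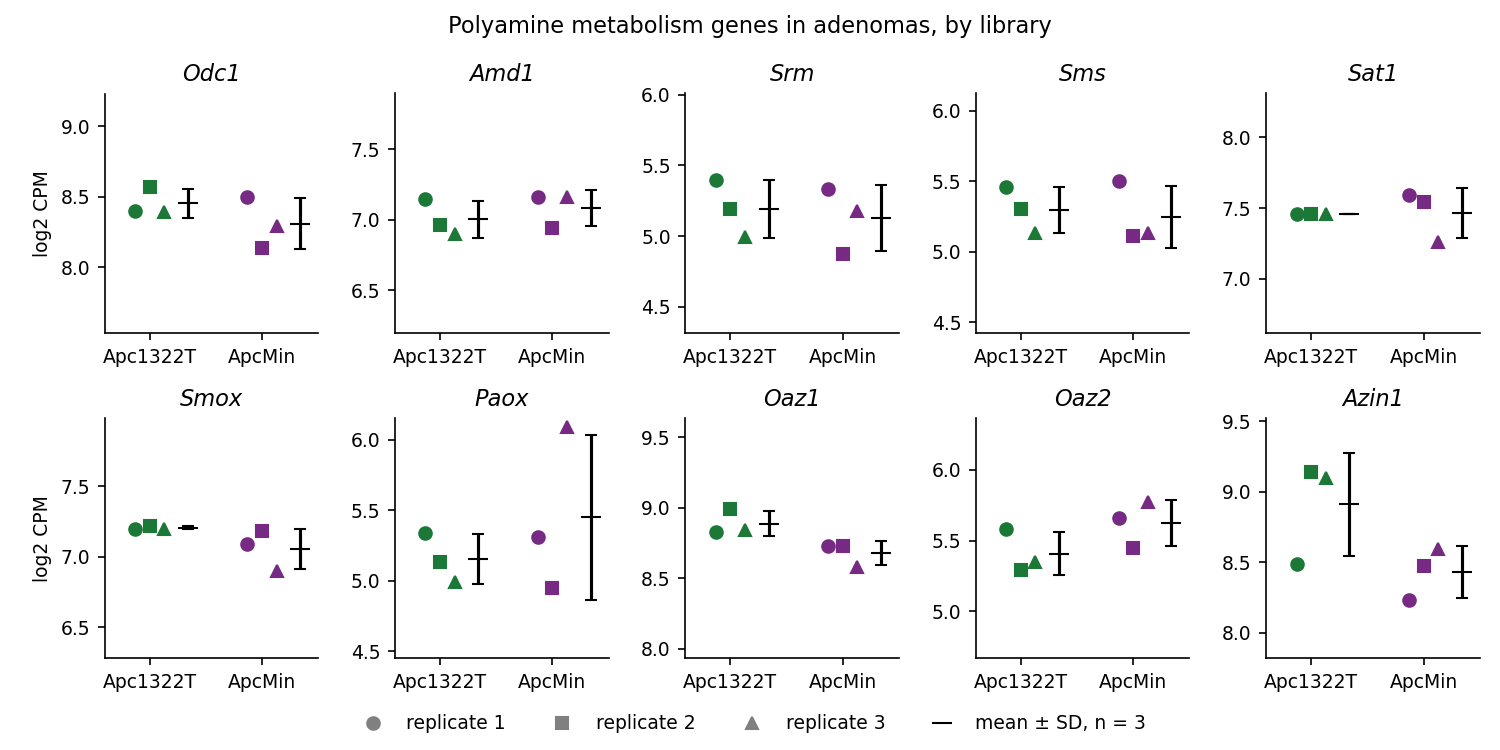
Log2 CPM of the 10 genes in the 3 Apc1322T libraries (green) and the 3 ApcMin libraries (purple), with a symbol for each replicate number and, beside the points, the mean and SD (n = 3). Every panel spans the same height on the log2 scale, so that *Paox* in ApcMin replicate 3 and *Azin1* in Apc1322T replicates 2 and 3 can be seen to stand off, while *Smox* and *Oaz1* separate the genotypes by small distances.

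Among the genes that control ornithine decarboxylase, *Azin1* had the largest negative fold change of the 10 and the only interval that left out 0. Antizyme inhibitor, its product, frees ornithine decarboxylase by taking its place on the antizyme. The log2 CPM of *Azin1* was 8.49, 9.14 and 9.10 in Apc1322T replicates 1, 2 and 3 (8.91 ± 0.36, SD, n = 3) and 8.23, 8.47 and 8.59 in ApcMin (8.43 ± 0.18, n = 3). Apc1322T replicates 2 and 3 were the highest libraries, whereas Apc1322T replicate 1 lay within the range of ApcMin. Between the genotypes the log2 fold change was -0.50 (SE 0.19, 95% interval -0.96 to -0.04), which is 0.706 times the level in Apc1322T, with an unadjusted p of 0.0367 and an adjusted p of 0.313 in edgeR. DESeq2 gave an adjusted p of 0.160. *Azin1* ranked 1940th of the 16536 tested genes by its p. Without Apc1322T replicate 2 the unadjusted edgeR p was 0.111, without Apc1322T replicate 3 it was 0.112, and without ApcMin replicates 1 or 2 it was 0.114 or 0.0735. Without Apc1322T replicate 1 the log2 fold change was -0.68, with an unadjusted p of 0.001 and an adjusted p of 0.0568, in a fit where 24.4% of all tested genes had an unadjusted p under 0.05. Both libraries with high *Azin1* were also those with the highest summed enterocyte markers (24800 and 23400 CPM, against 8110 to 18000 CPM in the other 4). Singly, *Apoa1*, *Apoa4* and *Fabp1* were highest in both of these libraries, whereas *Alpi*, *Sis* and *Fabp2* were not. The part of enterocytes in the result was not tested. *Azin1* shares no 50-base window with another gene.

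The antizyme genes themselves lay on opposite sides of 0. *Oaz1* had log2 CPM values of 8.83, 8.99 and 8.84 in Apc1322T (8.89 ± 0.09, SD, n = 3) and 8.73, 8.73 and 8.58 in ApcMin (8.68 ± 0.085, n = 3). All ApcMin libraries were below all Apc1322T libraries, by at least the small gap between 8.73 and 8.83. A log2 fold change of -0.21 (SE 0.097, 95% interval -0.44 to 0.02) had an unadjusted p of 0.0722 and an adjusted p of 0.362 in edgeR. The summed epithelial markers also separated the genotypes in this direction (9530 to 11400 CPM in ApcMin, 12000 to 14900 CPM in Apc1322T). Singly, 3 of these 6 markers did so. The summed smooth muscle, endothelium and squamous markers separated the genotypes in the other direction. Of the single markers in these lists, 1 of 5, 1 of 3 and 2 of 4 did so. The part of these cell types in the result was not tested.

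The counts listed for the pseudogene *Oaz1-ps* differed more than those of *Oaz1* itself. There were 578, 396 and 386 in Apc1322T replicates 1, 2 and 3, and 0, 0 and 149 in ApcMin replicates 1, 2 and 3. *Oaz1* had 12395, 10697 and 10471 counts in Apc1322T and 15216, 10776 and 12120 in ApcMin. Set against the separate *Oaz1* count of the same library, the pseudogene count was 3.69% to 4.66% of its size in Apc1322T and 0% to 1.23% in ApcMin. Tested alone, the level of *Oaz1-ps* had a log2 fold change of -3.58 (SE 1.5). Its unadjusted p was 0.0554 and its adjusted p 0.338 in edgeR, and DESeq2 gave an unadjusted p of 0.172. Since reads of either could be assigned to the other, the counts of *Oaz1* and *Oaz1-ps* were also summed before the fit, an alternative chosen after these values were seen. The sum was 8.89, 9.04 and 8.89 in Apc1322T and 8.73, 8.73 and 8.60 in ApcMin on the log2 CPM scale, with a log2 fold change of -0.26 (SE 0.095, 95% interval -0.48 to -0.03) and an edgeR adjusted p of 0.310. Its unadjusted p of 0.031 put 2 of the 10 genes under 0.05 in this fit, in which the share of all genes was 15.1%. The part of the T in the frameshift site in this division of reads was not tested.

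**Figure D3:**
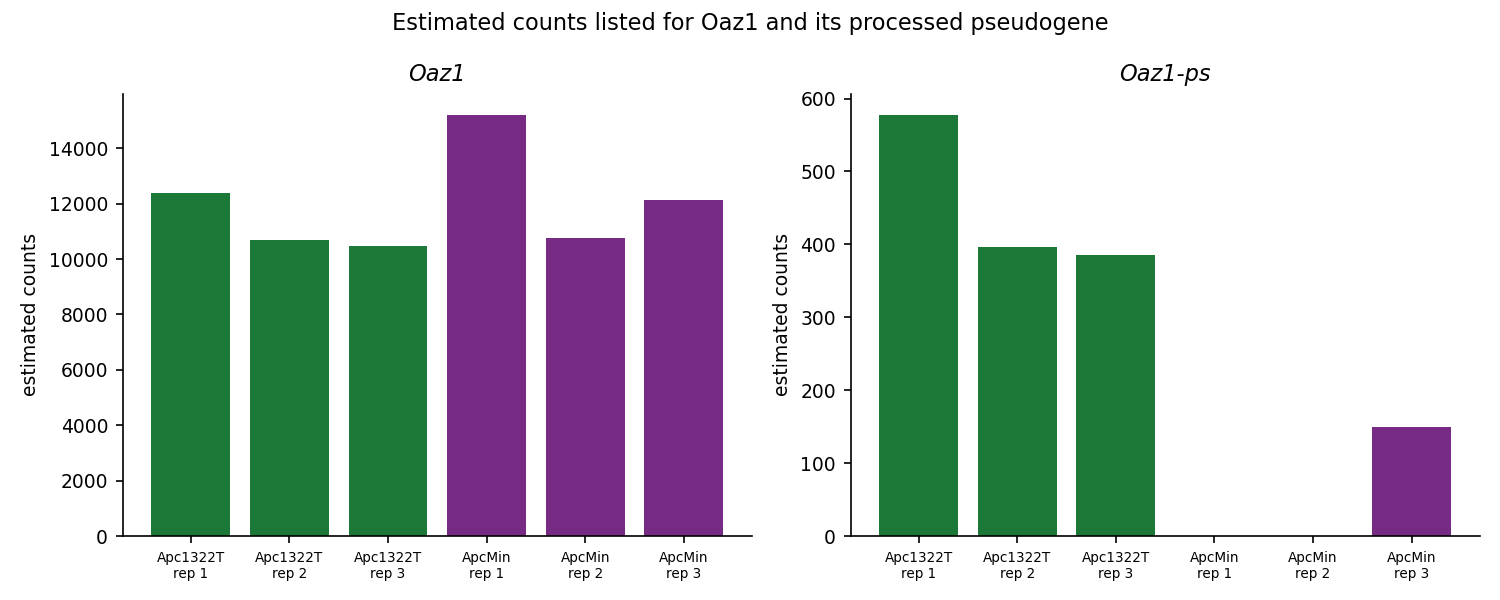
Estimated counts listed in each library for *Oaz1* (left) and for its processed pseudogene *Oaz1-ps* (right), not normalised for depth, in green for Apc1322T and purple for ApcMin. *Oaz1* had 10471 to 15216 counts, whereas *Oaz1-ps* had 386 to 578 in Apc1322T and 0, 0 and 149 in ApcMin.

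*Oaz2*, which encodes an antizyme found in many tissues at lower levels, had log2 CPM values of 5.58, 5.29 and 5.35 in Apc1322T (5.41 ± 0.15, SD, n = 3) and 5.66, 5.45 and 5.77 in ApcMin (5.63 ± 0.16, n = 3). ApcMin replicates 1 and 3 were the highest libraries, and ApcMin replicate 2 lay within the range of Apc1322T. For *Oaz2* the log2 fold change was 0.22 (SE 0.12, 95% interval -0.07 to 0.52, edgeR adjusted p = 0.412). Leaving out Apc1322T replicate 1 gave 0.32, with an unadjusted p of 0.0299 and an adjusted p of 0.165, in a fit where 24.4% of all tested genes had an unadjusted p under 0.05. Per length, *Oaz1* exceeded *Oaz2* 16.8, 23.1 and 19.8 times in Apc1322T and 14.8, 17.1 and 12.4 times in ApcMin. These ratios overlapped through ApcMin replicate 2 and Apc1322T replicate 1.

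Within a library, *Odc1* can be set against its inhibitor, as far as RNA levels give it. The ratio of *Odc1* to *Oaz1* per length was 0.351, 0.354 and 0.346 in Apc1322T (0.350 ± 0.0041, SD, n = 3) and 0.402, 0.316 and 0.387 in ApcMin (0.368 ± 0.046, n = 3). The ApcMin values lay on both sides of the narrow range of Apc1322T. *Azin1* against *Oaz1* was 0.170, 0.238 and 0.256 in Apc1322T and 0.151, 0.179 and 0.215 in ApcMin, with overlap again through Apc1322T replicate 1.

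In the catabolic branch, none of the 3 genes passed the test. The mean of *Sat1* was 7.46 on the log2 CPM scale in both genotypes, *Smox* lay slightly lower in every ApcMin library, and *Paox* was high in 1 library. *Sat1* encodes spermidine/spermine acetyltransferase, the step that marks polyamines for oxidation or export. Its log2 CPM was 7.46 in each of the 3 Apc1322T libraries (SD 0.0036) and 7.59, 7.54 and 7.26 in ApcMin (7.46 ± 0.18, SD, n = 3). ApcMin thus had both the highest values and the lowest. A log2 fold change of 0.01 (SE 0.11, 95% interval -0.24 to 0.26, edgeR adjusted p = 0.971) corresponds to 0.846 to 1.20 times the level in Apc1322T. Part of the *Sat1* RNA is known to carry an additional exon that leads to its decay, and counts per gene do not separate it.

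*Smox* encodes spermine oxidase, which turns spermine directly into spermidine and releases hydrogen peroxide. It had log2 CPM values of 7.20, 7.22 and 7.20 in Apc1322T (7.20 ± 0.012, SD, n = 3) and 7.09, 7.18 and 6.90 in ApcMin (7.06 ± 0.14, n = 3). All ApcMin libraries lay below all of Apc1322T, but ApcMin replicate 2 (7.18) nearly reached them. For *Smox* the log2 fold change was -0.14 (SE 0.093, 95% interval -0.37 to 0.08, edgeR adjusted p = 0.473). With upper quartile normalisation in place of TMM the libraries of *Smox* overlapped (up to 7.21 in ApcMin, down to 7.15 in Apc1322T), which left *Oaz1* as the only member that separated the genotypes. As for *Oaz1*, the summed epithelial markers moved in the same direction, and their part in the result was not tested.

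*Paox*, which encodes the peroxisomal oxidase of acetylated spermine and spermidine, had the widest range of the 10 genes, 1.14 on the log2 CPM scale. The values were 5.34, 5.13 and 4.99 in Apc1322T (5.15 ± 0.18, SD, n = 3) and 5.31, 4.95 and 6.09 in ApcMin (5.45 ± 0.58, n = 3). ApcMin replicate 3 stood apart, and the other 2 ApcMin libraries lay within or just under the range of Apc1322T. The log2 fold change was 0.37 (SE 0.29, 95% interval -0.34 to 1.08, edgeR adjusted p = 0.550), and it was -0.02 without ApcMin replicate 3. The processed pseudogene *Gm19680* was credited with 687, 490 and 394 counts in Apc1322T and 565, 380 and 928 in ApcMin, again with ApcMin replicate 3 the highest, against 722 to 2152 for *Paox*. The shared stretch covers bases 226 to 1583 of the 4655 bases of the *Paox* transcript, and the counts depend there on how reads were divided. *Gm19680* was picked out after the shared windows were computed. Summed with *Paox*, it gave log2 CPM values of 6.04, 5.86 and 5.61 in Apc1322T and 5.79, 5.52 and 6.61 in ApcMin, with a log2 fold change of 0.20 (SE 0.29, 95% interval -0.50 to 0.91, adjusted p = 0.753).

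**Figure D4:**
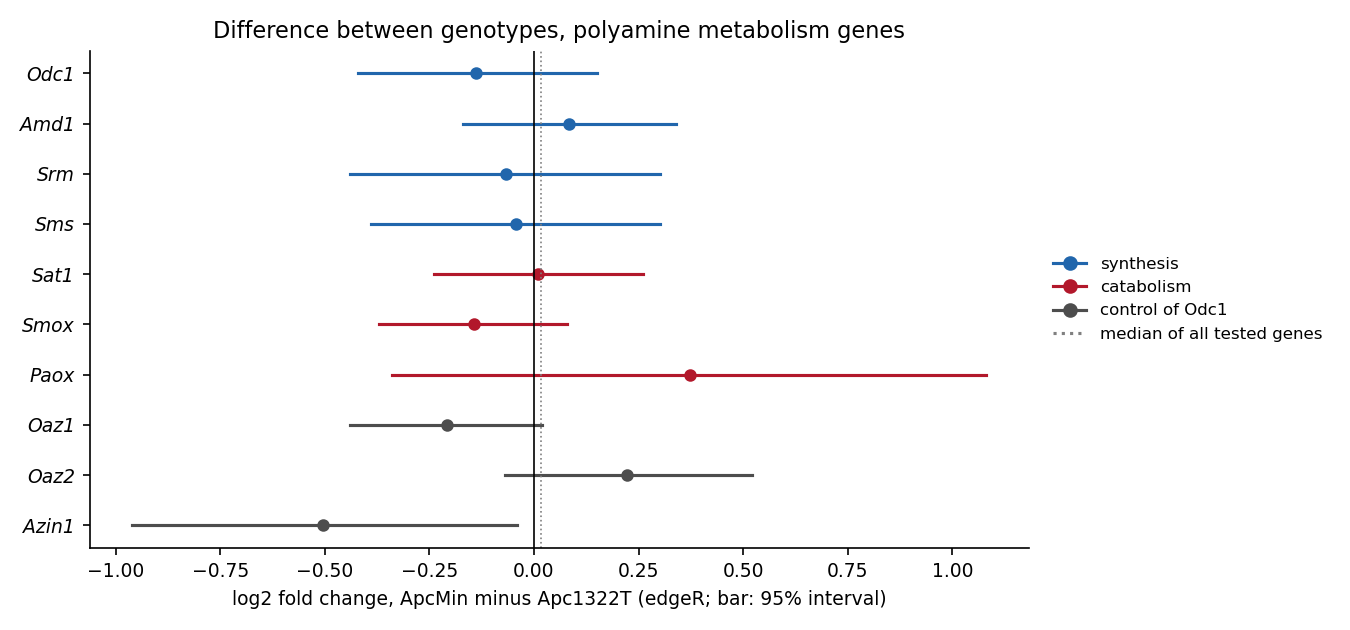
Log2 fold change (ApcMin minus Apc1322T) of the 10 genes in edgeR, with the 95% interval as a bar and colours for the roles in the pathway (synthesis, catabolism, control of *Odc1*). The dotted line is the median of all tested genes, 0.02, and every interval but that of *Azin1* (-0.96 to -0.04) includes 0.

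A wider list of 31 genes around the pathway was read from the same fit. It covered the supply of ornithine and agmatine, further members of the gene families, the supply of S-adenosylmethionine and salvage of methylthioadenosine, the hypusine modification and transport. Of these, 28 were tested, 0 passed the threshold, and 5 had an unadjusted p under 0.05, 3 with lower and 2 with higher values in ApcMin. These 5 are 17.9% of the 28, near the 15.1% of all tested genes. The genotypes were separated for 4 of the 28 (14.3%, against 21.0% of all tested genes). The median log2 fold change of the list was -0.04, and for the 23 genes without such a p the log2 fold changes ran from -0.69 to 0.57, with edgeR adjusted p between 0.332 and 0.955. *Oaz3*, the antizyme gene of the testis, had 5 to 13 counts per library, *Mat1a*, the S-adenosylmethionine synthetase gene of the liver, 0 to 4, and the organic cation transporter gene *Slc22a2* 1 to 3, and all 3 were removed by the filter.

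Of the supply genes, *Agmat* had the smallest p of the list. It encodes agmatinase, named for the conversion of agmatine to putrescine. Its log2 CPM was 3.24, 3.11 and 3.35 in Apc1322T (3.24 ± 0.12, SD, n = 3) and 1.91, 2.54 and 2.41 in ApcMin (2.29 ± 0.33, n = 3), with all ApcMin libraries below all of Apc1322T. Its log2 fold change was -0.94 (SE 0.21, 95% interval -1.44 to -0.44), with an unadjusted p of 0.00328 and an adjusted p of 0.257 in edgeR. DESeq2 gave an adjusted p of 0.00783, which made *Agmat* the only gene of the list past the threshold with that tool. The summed epithelial markers were also lower in every ApcMin library (9530 to 11400 CPM, against 12000 to 14900 CPM), and their part in the result was not tested. *Arg1*, an arginase that releases ornithine and is also known from macrophages, had log2 CPM values of 3.77, 2.95 and 2.57 in Apc1322T and 5.49, 4.76 and 3.38 in ApcMin. The genotypes overlapped between ApcMin replicate 3 and Apc1322T replicate 1, and the log2 fold change was 1.6 (SE 0.58, 95% interval 0.20 to 3.00, unadjusted p = 0.0313, adjusted p = 0.311 in edgeR). Macrophage and neutrophil markers were also highest in ApcMin replicate 1 (130 CPM, against 30.9 to 56.3 CPM elsewhere). They were low (35.5 CPM) in ApcMin replicate 2, where *Arg1* was next highest. Fibroblast markers were likewise highest in ApcMin replicate 1 (3250 CPM, against 598 to 1510 CPM elsewhere). The part of either group of cells in the result was not tested. *Arg2*, the mitochondrial arginase gene, had 5.56, 7.05 and 7.07 in Apc1322T and 6.17, 6.14 and 5.70 in ApcMin, so that Apc1322T replicates 2 and 3 were high as for *Azin1*, with a log2 fold change of -0.69 (95% interval -1.66 to 0.28). *Aoc1*, the gene of diamine oxidase, which degrades putrescine in the gut, ranged widely, with 6.00, 8.18 and 8.27 in Apc1322T and 7.45, 8.01 and 5.94 in ApcMin, and its log2 fold change was -0.43 (95% interval -2.15 to 1.30). The 3 libraries with the highest *Aoc1* were also those with the highest summed enterocyte markers. Of these markers *Alpi* did not follow, with its lowest log2 CPM, 9.62, in ApcMin replicate 2. The part of enterocytes in the result was not tested.

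Of the transport genes, *Slc12a8* was lower in every ApcMin library without passing the threshold. *Slc12a8*, a solute carrier that has been linked to polyamines, had log2 CPM values of 6.28, 6.27 and 6.15 in Apc1322T (6.23 ± 0.076, SD, n = 3) and 5.99, 5.56 and 5.63 in ApcMin (5.72 ± 0.23, n = 3). Its log2 fold change was -0.50 (SE 0.13, 95% interval -0.81 to -0.19, unadjusted p = 0.00682, adjusted p = 0.275 in edgeR). The summed epithelial markers moved in the same direction, and their part was not tested. *Atp13a3*, which encodes a polyamine transporter of the P5B ATPase family, had a log2 fold change of 0.15 (95% interval -0.12 to 0.42).

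*Mat2a*, the S-adenosylmethionine synthetase gene outside the liver, was the only gene of the list that was higher in every ApcMin library. It had log2 CPM values of 7.85, 7.85 and 7.62 in Apc1322T (7.77 ± 0.13, SD, n = 3) and 7.99, 8.07 and 8.74 in ApcMin (8.27 ± 0.41, n = 3). ApcMin replicate 3, which was also high for *Paox*, stood above the other 5 libraries. Its log2 fold change was 0.53 (SE 0.21, 95% interval 0.03 to 1.04, unadjusted p = 0.0419, adjusted p = 0.317 in edgeR). The summed smooth muscle, endothelium and squamous markers were also higher in every ApcMin library. Of the single markers, 1 of 5, 1 of 3 and 2 of 4 were so. The part of these cell types in the result was not tested. Of the 4 hypusine genes, which serve to turn spermidine into the modified lysine of eIF5A or encode that factor, none passed the test. *Dhps* had a log2 fold change of -0.01 (95% interval -0.21 to 0.19), *Dohh* of -0.06 (-0.28 to 0.17) and *Eif5a* of -0.02 (-0.28 to 0.24). *Eif5a2*, with 57 to 154 counts per library, had a log2 fold change of 0.30 and a wider interval (-0.42 to 1.02).

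**Figure D5:**
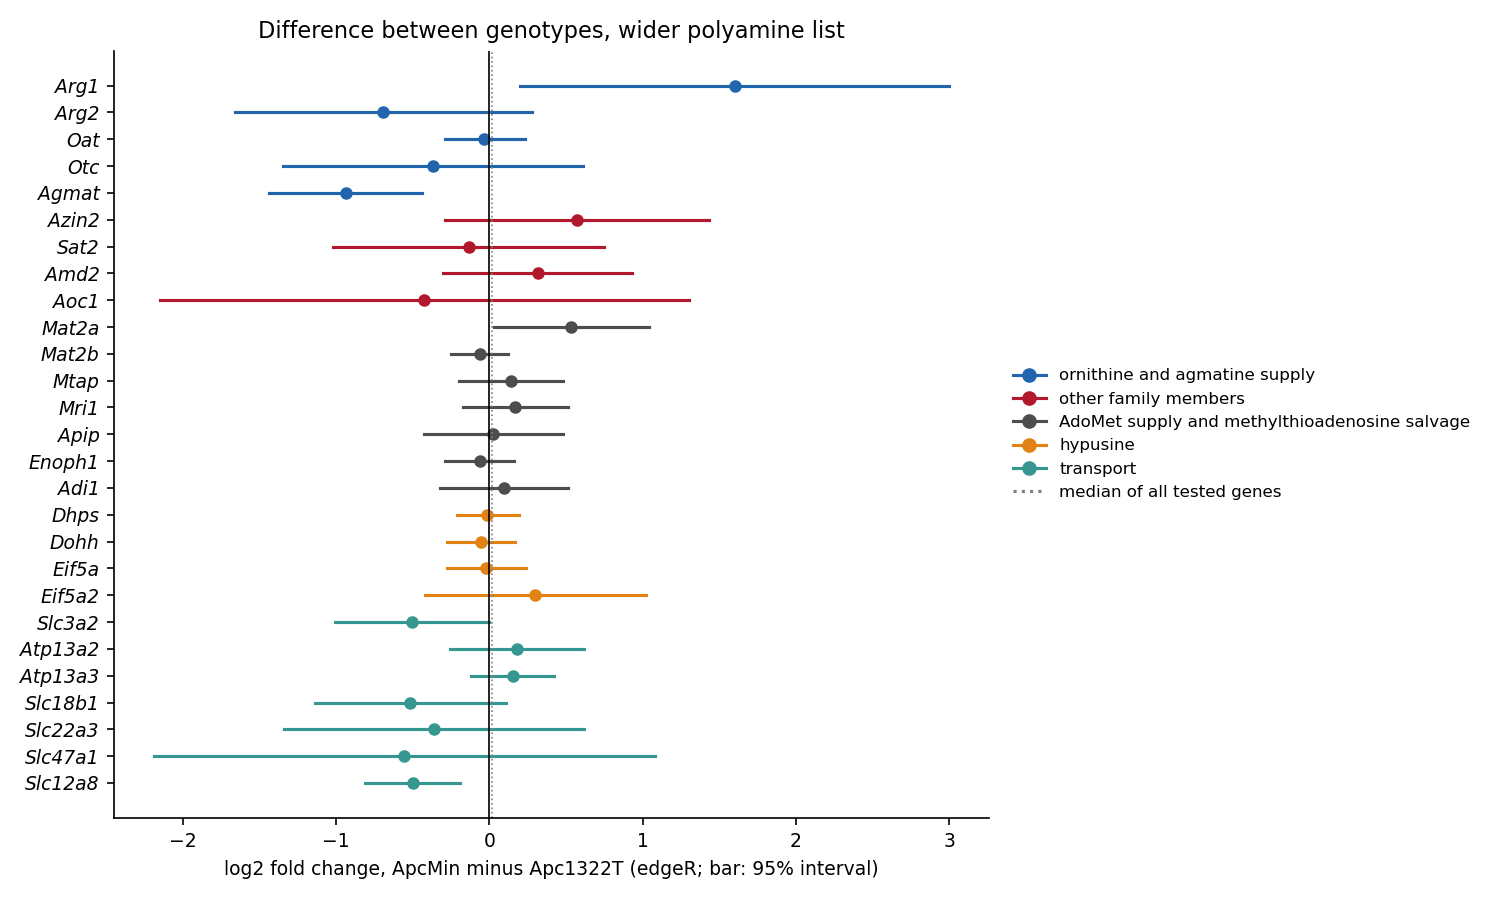
Log2 fold change (ApcMin minus Apc1322T) in edgeR of 27 tested genes of the wider list, with the 95% interval as a bar and a colour for each group of genes. The intervals of *Agmat* and *Slc12a8* lie below 0 and those of *Arg1* and *Mat2a* above it, those of *Aoc1* and *Slc47a1* are wide, and the hypusine genes *Dhps*, *Dohh* and *Eif5a* are close to 0.

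*Myc*, which encodes a known activator of *Odc1*, had log2 CPM values of 6.08, 5.40 and 5.54 in Apc1322T and 6.08, 5.84 and 6.25 in ApcMin, with overlap and a log2 fold change of 0.36 (SE 0.20, edgeR adjusted p = 0.412). *Apc*, the mutated gene, had 6.42, 6.41 and 6.47 in Apc1322T and 6.82, 6.80 and 6.97 in ApcMin, with a log2 fold change of 0.43 (SE 0.081, edgeR adjusted p = 0.257, DESeq2 adjusted p = 0.00928, which is past the threshold). The genotypes were thus separated for *Apc*, as they were for 21.0% of all tested genes (11.0% higher in ApcMin). Levels of RNA do not show which allele a library carries.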

How the data were processed

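RNA-seq of 6 adenoma libraries was used, 3 of each genotype, assigned by the sample labels. The authors quantified the reads with Salmon against the transcriptome of GRCm38.p6 and deposited estimated counts per gene, not normalised, of which 36.7% are not whole numbers. For this report the estimated counts were rounded. Genes were kept with filterByExpr (minimum count 10, minimum total count 15), normalised by TMM and compared in edgeR 4.0.16 (R 4.3.3) by a quasi-likelihood test with robust estimation. The p-values were adjusted by the Benjamini-Hochberg method over all tested genes at a threshold of 0.01. The SE is the size of a log2 fold change over the root of its F value. Other settings were DESeq2 1.42.0, limma-voom (limma 3.58.1), other normalisations and filters, each library left out, the replicate number as a block, and copies summed with their members. Copies were summed for *Oaz1*, *Oaz2*, *Sms*, *Paox* and *Amd1*, and the genes that share windows with *Odc1* were not summed with it. The fits were tested on simulated counts.

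Gene symbols, positions and transcripts were from GENCODE M21, with symbols for 34582 of 34866 genes. Shared windows are runs of 50 bases of the principal (APPRIS) transcript that occur on the same strand in a transcript of another gene. The members and lists were chosen with earlier results of these data known. All members are named. In the wider list, 1 gene is counted but not reported here. Of the others, genes with an unadjusted p under 0.05 or removed by the filter are named by rule, and *Arg2*, *Aoc1*, *Atp13a3* and the hypusine genes, as well as *Gm19680*, were picked after their values were seen. The replicate libraries were from separate mice as far as the methods state. The intervals are for the difference between the genotypes, and their width rests on the spread between libraries.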

Additional observations from a re-analysis of the deposited data

How the results depend on the processing

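The number of members past the threshold was 0 in all 16 other settings run. Few genes of any kind passed, so that this 0 says little about the members. DESeq2 called 194 of 17346 genes (1.12%), and each of the remaining settings called 0 or 1 gene in all. Of the wider list, DESeq2 put 1 gene past it (*Agmat*). The other settings put 0 past it, where they called 0 or 1 of all tested genes. With upper quartile normalisation 1 member separated the genotypes (*Oaz1*), the rest of the normalisations and filters giving 2 (*Oaz1* and *Smox*). The number of members at an unadjusted p under 0.05 was 0 to 2 when single libraries were left out, where the share of all tested genes ran from 6.92% (without Apc1322T replicate 2, 0 members) to 24.4% (without Apc1322T replicate 1, 2 members), and 2 with copies summed with their members, a setting chosen after the data were seen. The cause of these changes was not tested. The replicate number as a replicate block gave 0 members past the threshold and 1 member, *Azin1*, at an unadjusted p under 0.05, against 12.8% of all tested genes. Same-numbered libraries deviated from their genotype means with correlations of -0.0139, 0.164 and -0.286. The labels do not say whether the numbers pair the mice, and correlations over so few libraries cannot decide it.

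The sign of the log2 fold change was kept in all 15 settings for *Odc1*, *Amd1*, *Smox*, *Oaz1*, *Oaz2* and *Azin1*. The setting with summed copies left the counts of *Odc1*, *Smox* and *Azin1* as they were. The sign of the log2 fold change turned for *Sms* with upper quartile normalisation (0.012) and for *Sat1* with DESeq2 (-0.005). With single libraries left out, it ranged from -0.175 to 0.049 for *Srm*, from -0.185 to 0.051 for *Sms*, from -0.055 to 0.104 for *Sat1* and from -0.02 to 0.592 for *Paox*. Upper quartile normalisation placed the median of all tested genes at 0.074, against 0.017 with TMM. With 3 libraries of a genotype, the interval of a member was between 0.445 and 1.42 wide on the log2 scale.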
